A study of Mus musculus with 2 samples.

Results

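Complement is a cascade of plasma and tissue proteins that marks cells and particles for removal. It is started by C1q and its proteases (the classical route), by mannose-binding lectins and ficolins (the lectin route) or by factor B, factor D and properdin (the alternative route), all of which act on C3. C5 to C9 then form the terminal pore, and regulators on cell surfaces and in fluid hold the cascade in check. Most plasma complement is known to come from the liver, C1q from macrophages, and factor D (adipsin) from fat cells.

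The 33 genes described here are complement components, regulators and receptors. They were chosen by name, with earlier results of these data known, so counts of calls among them are a description. All 33 were matched by symbol among 43346 mouse gene entries. Polyadenylated RNA was taken from adipose tissue, of a depot not named, with a kit made for fatty tissue; the animal was a C57BL/6J male, an adult of 10 weeks. The labels name 1 biosample and 2 technical libraries in a single group, with no treatment and no second genotype. The second library was prepared in 2015, later than the 2014 publication that the labels name, so a difference between libraries and one between preparation times cannot be told apart. Each SD below is the technical spread of n = 2 libraries, and no condition was compared with another.

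Library 1 held 19954869 and library 2 held 19256807 expected counts, which are estimated reads per gene. Levels are given in TPM, a measure per transcript length that sums to the same total in each library. In both libraries all 8 adipocyte markers reached 1 TPM, and so did all 10 epididymis, 8 testis germ cell, 10 macrophage, 6 mesothelium and 6 stromal progenitor markers. The epididymis markers summed to 44639 and 51688 TPM in libraries 1 and 2, against 7557 and 11413 TPM for the adipocyte markers. Of 10 hepatocyte markers, 2 (Alb and Fga) reached 1 TPM in both. The mitochondrial share of TPM, nuclear copies included, was 51.7% and 15.9%, which lowers the TPM of every other gene more in library 1. In tissue RNA, fewer cells of a type and less RNA per cell cannot be told apart.

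Complement genes were unequally represented among the routes. Of the 33 genes, 23 reached 1 TPM in both libraries, 9 stayed under it in both, and C4a reached it in library 2 alone. By the length of its longest transcript, a scale described further on, C4a was at 0.067 and 0.287 TPM. C3, which all routes share, was counted with the alternative route, and C2 and C4, which also serve the lectin route, with the classical. So counted, the alternative route had the highest median level, at 41.4 and 197 TPM in libraries 1 and 2. Without C3 its middle value was that of Cfb, 13.6 and 95.9 TPM, below the classical medians. Classical components had medians of 13.8 and 117 TPM and regulators 17.5 and 13.8 TPM, so these groups changed places between the libraries. The receptors had medians of 4.69 and 6.02 TPM. Terminal components (0.50 and 0.28 TPM) and lectin components (0.23 and 0.52 TPM) were lowest, and their order also changed between the libraries. Together the 33 genes held 0.392% of TPM in library 1 and 1.11% in library 2, and Clu and Cfd together made up 83.1% and 87.0% of that. Clu alone held 81.4% and 46.1%, whereas Cfd held 1.77% in library 1, below C3 (6.16%), and 40.9% in library 2. The alternative route accordingly held 8.34% and 44.7% of the members' TPM, and the regulators 86.4% and 47.7%.

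**Figure D1:**
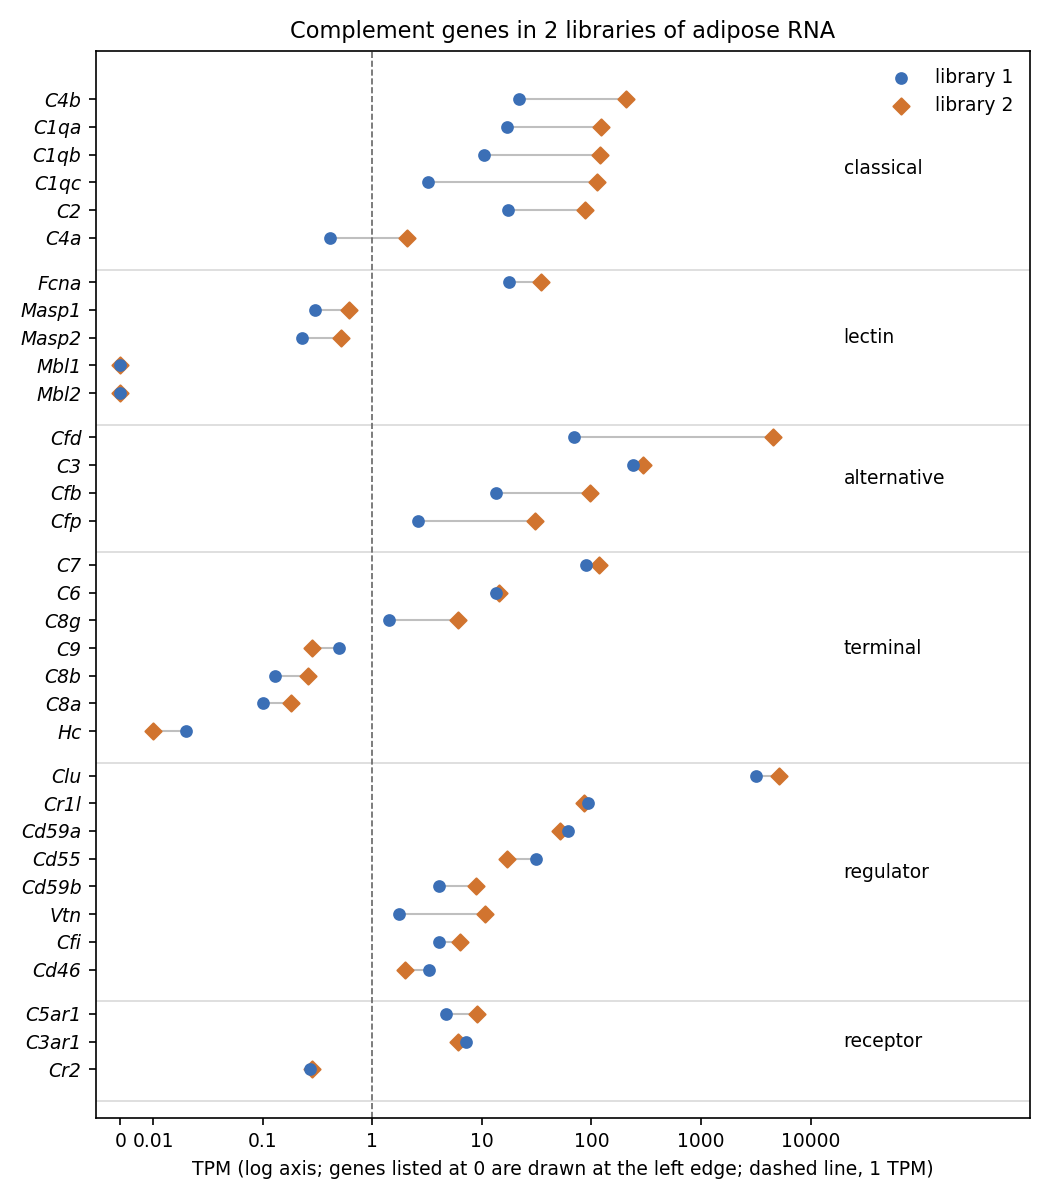
Level of each complement gene in TPM (log axis) in library 1 (circles) and library 2 (diamonds), grouped by role; a dashed line marks 1 TPM and genes listed at 0 are drawn at the left edge. Clu is highest in both libraries, Cfd lies at 69.3 and 4561 TPM, and Mbl1 and Mbl2 are listed at 0.

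The classical route begins with C1q, a complex built from A, B and C chains encoded by neighbouring genes on chromosome 4. C1qa lies at 136895917 to 136898803, C1qc at 136889804 to 136893065 and C1qb at 136880129 to 136886187 (mm10, all on the minus strand). Each chain has a collagen-like stretch made of short repeats that each begin with glycine, shown here as the coding-strand window of 90 bases with the most such codons, from the GENCODE M21 transcripts. The stretches are printed because the chains form a single complex, are GC-rich and differ in sequence, so their reads can be told apart. Capitals mark the glycine codons (GGN).
C1qa: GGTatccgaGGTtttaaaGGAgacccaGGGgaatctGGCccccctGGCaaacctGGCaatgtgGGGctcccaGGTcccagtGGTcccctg
C1qb: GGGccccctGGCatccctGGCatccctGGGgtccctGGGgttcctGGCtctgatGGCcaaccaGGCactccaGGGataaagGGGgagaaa
C1qc: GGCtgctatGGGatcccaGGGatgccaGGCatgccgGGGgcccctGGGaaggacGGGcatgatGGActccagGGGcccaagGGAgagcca
The windows lie at chr4:136896619-136896708, chr4:136882128-136882217 and chr4:136892380-136892469. Their GC content was 62.2%, 65.6% and 68.9%, and that of the whole coding sequences 58.8%, 58.5% and 61.9%. Coding sequences of any 2 of the 3 chains were 55.2% to 57.1% identical, with no identical run longer than 15 bases.

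The 3 chains stood at nearly equal levels in library 2 and at unequal levels in library 1. In library 2, C1qa was at 123 TPM, C1qb at 120 TPM and C1qc at 113 TPM, from 1412, 1454 and 1542 counts. In library 1, the same chains were at 17.1, 10.45 and 3.22 TPM, from 249, 161 and 55 counts. The level of C1qa over that of C1qc was 5.30 in library 1 (95% exact interval from the counts 3.94 to 7.24) and 1.09 in library 2 (1.01 to 1.17). These intervals and those below cover counting error alone.

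Set between the libraries, all 3 chains were called higher in library 2. A call here needs an adjusted p under 0.05 in an exact binomial test of the 2 libraries' counts and at least a 2-fold difference after TMM scaling. The test compares these 2 libraries, not conditions, and has no replicate check. Over all 18275 genes tested, calls fell on 30.1% as higher in library 2 and on 18.4% as lower. The log2 ratio of library 2 over library 1 was 2.11 for C1qa (1.92 to 2.32), 2.78 for C1qb (2.55 to 3.03) and 4.41 for C1qc (4.03 to 4.84). These intervals do not overlap, so the chains of a single complex shifted by different amounts. The 10 macrophage markers differed in direction: Csf1r, Cd68 and Cd14 were called higher, with log2 ratios of 2.13, 1.38 and 2.49, Mrc1 was called lower at -1.21, and Adgre1, Cd163, Mertk, Fcgr1, Timd4 and Lyz2 were not called. That list summed to 272 and 631 TPM, from 1.24 to 173 TPM in library 1 and from 2.58 to 448 TPM in library 2, and its part in the C1q values was not tested.

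**Figure D2:**
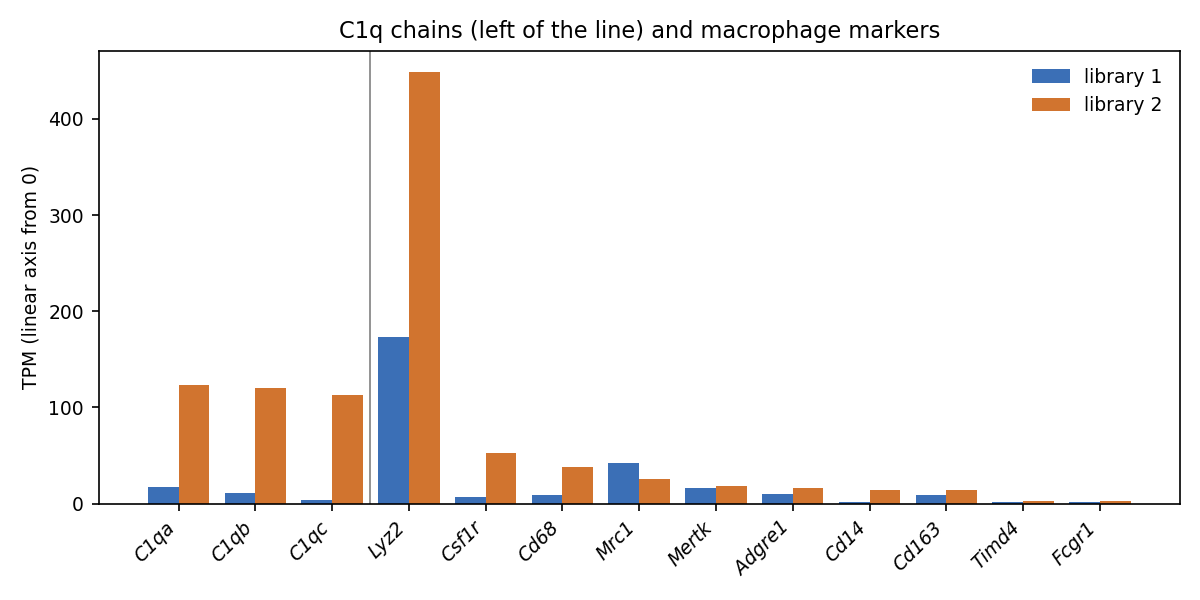
Levels in TPM (linear axis from 0) of the 3 C1q chains, left of the line, and of 10 macrophage markers in library 1 (blue) and library 2 (orange). The C1q bars are nearly level in library 2 (113 to 123 TPM) and graded in library 1 (3.22 to 17.1 TPM).

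C4, which the C1 proteases cleave, was represented by C4b. C4b stood at 21.9 and 208 TPM in libraries 1 and 2, from 1472 and 11205 counts, and was called higher in library 2 with a log2 ratio of 2.54 (2.46 to 2.62). Once the trend with transcript GC content, described further on, was removed, C4b stood at 0.85 and was not called. C4a, its near copy and known in the mouse as sex-limited protein, was at 0.41 and 2.05 TPM from 5.93 and 19.9 counts, and was not called at 1.27 (-0.02 to 2.96). C4a thus took 0.401% and 0.178% of the counts of the pair. The genes lie on chromosome 17, C4b at 34728380 to 34743882 and C4a at 34809092 to 34823464.

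Their longest transcripts were 95.9% identical, with identical runs of up to 433 bases. Reads from such runs cannot be placed, so the counts of both genes are fractional and C4a is uncertain. The window of 90 coding bases of C4b with the most differences is printed to show where a read can tell them apart, with capitals at the 14 bases that differ.
C4b: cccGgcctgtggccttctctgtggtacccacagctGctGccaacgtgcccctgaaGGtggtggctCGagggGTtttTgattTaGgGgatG
C4a: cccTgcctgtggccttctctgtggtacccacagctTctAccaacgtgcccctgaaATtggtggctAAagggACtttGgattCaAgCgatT
The windows lie at chr17:34735430-34735519 and chr17:34816086-34816175, on the minus strand, in mm10.

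C2 and Cfb, neighbours on chromosome 17, encode the related proteases of the classical and alternative convertases. C2 was at 17.2 and 86.9 TPM and Cfb at 13.6 and 95.9 TPM, and both were called higher in library 2, at log2 ratios of 1.83 (1.70 to 1.97) and 2.43 (2.27 to 2.60). A readthrough gene model that spans both, Gm20547, held 421 counts in library 1 and 0 in library 2, beside 554 and 359 counts for C2 and Cfb in library 1. With the counts of all 3 summed (1334 and 5119), a sum added once the values were known, the log2 ratio was 1.55 (1.47 to 1.64). Counts of C2 and Cfb were fractional in library 1, and C2 overlaps Zbtb12 on the other strand, so the split between them is uncertain.

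In the alternative route all 4 genes were called higher in library 2, against 30.1% of all genes tested. Once the trend with transcript GC content, described further on, was removed, 3 of the 4 were called higher, against 9.19% of all genes. C3 was then not called. Cfd, the protease that cleaves factor B, was at 69.3 and 4561 TPM, from 872 and 45104 counts (chromosome 10, 79890853 to 79892655). Its level ranked 5 of 33 in library 1 and 2 of 33 in library 2, and its log2 ratio of 5.30 (5.21 to 5.40) was the largest of the 29 tested. Genes of like GC content had a median of 3.40. With that trend removed Cfd stood at 1.91, below C1qc at 1.96. Of the 8 adipocyte markers, 3 were called higher (Lipe at 4.72, Plin1 at 6.52 and Cidec at 2.66) and 2 lower (Lpl at -1.07 and Cd36 at -1.22), while Adipoq, Fabp4 and Pparg were not called. They ranged from 2.23 to 4072 TPM in library 1 and from 54.3 to 6105 TPM in library 2. The part of fat cell content in the Cfd values was not tested.

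Cfp encodes properdin, which stabilises the alternative convertase. It was at 2.59 and 30.5 TPM, from 36 and 561 counts, with a log2 ratio of 3.56 (3.09 to 4.10). C3, the shared hub of all routes, was at 241 and 298 TPM, or 269 ± 40.1 TPM (SD, n = 2). Its counts were 6040 and 18760, and its log2 ratio of scaled counts was 1.25 (1.21 to 1.29). The small difference in TPM beside the larger one in counts goes with the transcripts to which the reads were assigned, described further on.

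Of the lectin route, 1 of 5 members was above 1 TPM. Fcna, ficolin A, which binds sugars on microbes, was at 17.6 and 34.8 TPM from 148 and 554 counts and was called higher in library 2 at 1.51 (1.25 to 1.79). It overlaps the antisense gene Fcnaos, which had 5 and 38 counts. Masp1 and Masp2, the proteases that act with lectins and ficolins, were at 0.30 and 0.61 TPM and at 0.23 and 0.52 TPM. They had 13 and 21 counts and 7 and 10 counts, neither was called, and Masp2 overlaps the abundant gene Tardbp on the other strand. Mbl1 and Mbl2, the mannose-binding lectins, had 0 counts in both libraries, which allows up to 0.238 and 0.303 TPM for Mbl1 and 0.192 and 0.244 TPM for Mbl2, where 3 counts would lie.

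The terminal components were unevenly present. C7 was at 88.9 and 118 TPM and C6 at 13.5 and 14.35 TPM, and neither was called, with log2 ratios of -0.33 (-0.40 to -0.27) and -0.65 (-0.83 to -0.48). C6 and C7 bind in turn to the growing complex, and C6 stood at 0.152 of the level of C7 in library 1 (0.139 to 0.166) and 0.122 in library 2 (0.111 to 0.134). Mesothelium markers summed to 67.1 and 252 TPM and stromal progenitor markers to 444 and 560 TPM, and their part in these levels was not tested. C8g, a lipocalin that is part of C8, was at 1.42 and 6.07 TPM from 19 and 77 counts and was called higher in library 2 at 1.60 (0.89 to 2.44).

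The remaining terminal genes were at or near the limit of counting. Hc, which encodes C5, had 2 and 1 counts, C8b 2 and 3 counts, and C8a 6 and 5 counts. C9, the pore-forming subunit, had 16 and 7 counts, or 0.50 and 0.28 TPM, and was called lower in library 2 at -1.52 (-3.10 to -0.22). A count of 3 would equal 0.0334 and 0.0426 TPM for Hc, 0.201 and 0.256 TPM for C8b and 0.0942 and 0.120 TPM for C9. C5, C8a, C8b and C9 are known as liver products, and the 10 hepatocyte markers summed to 8.76 and 15.7 TPM, with values of 0 to 5.64 and 0 to 9.17 TPM. Apoa1 and Fgb had 0 counts in library 1 and Cps1 had 0 in library 2.

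All 8 regulators reached 1 TPM in both libraries. Clu, clusterin, a secreted chaperone that blocks the terminal complex and is known to be abundant in the epididymis, was at 3185 and 5138 TPM, from 31841 and 111090 counts (chromosome 14, 65968483 to 65981547). It ranked first among the 33 in both libraries and was called higher in library 2 at a log2 ratio of 1.42 (1.40 to 1.43). The epididymis markers ranged from 439 to 14177 TPM in library 1 and from 437 to 15610 TPM in library 2, with 1 of 10 called higher and 2 lower. The share of Clu that came from that tissue was not tested.

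The 3 membrane regulators that act on the C3 convertases were called lower in library 2, though none of them was called once the trend with transcript GC content, described further on, was removed (Cr1l 0.16, Cd55 -0.51, Cd46 -0.00). Cr1l, known as Crry and the main such regulator of mouse cells, was at 93.65 and 84.65 TPM from 2453 and 1551 counts and was called lower at -1.05 (-1.14 to -0.96). Cd55, decay-accelerating factor, was at 30.97 and 16.99 TPM and was called lower at -1.66 (-1.81 to -1.51). Cd46, which in the mouse is known mainly from sperm, was at 3.31 and 1.99 TPM from 93 and 42 counts and was called lower at -1.52 (-2.10 to -0.99). Cd46 overlaps the transcript A330023F24Rik (514 and 354 counts) on the other strand. The 8 testis germ cell markers ranged from 2.94 to 136 TPM in library 1 and from 25.8 to 516 TPM in library 2, with 4 called higher and 0 lower, and their part in the Cd46 values was not tested. With total counts in place of TMM, which moves every log2 ratio by 0.44, Cr1l and C9 were no longer called and C4a was called higher.

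Cd59a and Cd59b, adjacent genes on chromosome 2, encode inhibitors of the pore. Cd59a was at 60.7 and 51.1 TPM from 1453 and 974 counts and was not called at -0.96 (-1.08 to -0.85), just short of 2-fold. Cd59b was at 4.02 and 8.80 TPM from 20 and 36 counts and was not called at 0.45 (-0.37 to 1.33). The level of Cd59a was 15.1 times that of Cd59b in library 1 (9.74 to 24.8) and 5.80 times in library 2 (4.16 to 8.34). With each gene's counts over the length of its longest coding transcript, these ratios were 27.3 and 10.2. Their coding sequences were 75.1% identical, with no identical run above 47 bases, and both had whole counts (within 0.005). The coding window with the most differences is printed because it separates the abundant copy from the rare copy, with capitals at the 32 bases that differ.
Cd59a: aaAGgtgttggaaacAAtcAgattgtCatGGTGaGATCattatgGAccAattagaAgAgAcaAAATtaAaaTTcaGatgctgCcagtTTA
Cd59b: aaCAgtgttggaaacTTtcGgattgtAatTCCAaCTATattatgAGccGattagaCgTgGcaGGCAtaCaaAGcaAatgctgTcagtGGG
The windows lie at chr2:104113990-104114079 and chr2:104084437-104084526, on the plus strand, in mm10.

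Among the member genes, the fluid-phase regulators other than Clu, namely Cfi and Vtn, were low. This does not extend to regulators outside the member set. C4bp, a fluid-phase cofactor, and Serping1, the inhibitor of the C1 proteases, stood higher than both in each library and are described further on. Cfi, the protease that inactivates C3b and C4b, was at 4.06 and 6.25 TPM and was not called at -0.12 (-0.46 to 0.23). Vtn, vitronectin, which binds the terminal complex, was at 1.75 and 10.6 TPM from 16 and 219 counts and was called higher in library 2 at 3.35 (2.66 to 4.22).

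None of the 3 receptors was called in either direction. C3ar1, the receptor of C3a, was at 7.14 and 6.02 TPM from 503 and 332 counts, with a log2 ratio of -0.99 (-1.19 to -0.78), just short of 2-fold. C5ar1, the receptor of C5a, was at 4.69 and 9.02 TPM, with a log2 ratio of 0.22 (-0.05 to 0.49). Cr2, a receptor of B cells and follicular dendritic cells, was at 0.27 and 0.28 TPM from 9 and 4 counts. The 4 B cell markers were each under 1 TPM in both libraries, with maxima of 0.43 and 0.59 TPM, and of 3 follicular dendritic cell markers 1 (Cxcl13, 3.38 and 1.36 TPM) was above it.

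Of the 33 genes, 29 had at least 10 counts over both libraries and were tested, while Mbl1, Mbl2, Hc and C8b were not. Over the set, 13 of 29 tested genes (44.8%) were called higher in library 2, against 30.1% of all genes, and 4 (13.8%) lower, against 18.4%. The median log2 ratio was 0.45 over the 29 and 0.02 over all genes tested. With total counts in place of TMM the split was 14 higher and 2 lower for the 29, and 6789 against 1176 over all genes, in place of 5504 against 3361. By role, the calls higher in library 2 fell on 5 of 6 classical, 4 of 4 alternative, 1 of 3 tested lectin, 1 of 5 tested terminal and 2 of 8 regulator genes, and on 0 of 3 receptors. The calls lower fell on 3 regulators and 1 terminal gene. The groups were not tested against each other.

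The calls ran parallel to the base composition of the transcripts. Transcript GC content was taken over all annotated transcripts of a gene together, including those with no reads assigned. Cr1l, for example, was at 41.7%, while its leading transcript Cr1l-201 had 44.8%. The trend was not removed with the leading transcripts alone. The 29 tested genes had transcript GC contents of 37.9% (Cd46) to 59.5% (C1qa). Of the 15 at or above their median of 51.6%, 13 were called higher and 0 lower, while of the 14 below it 0 were called higher and 4 lower. The shares of all genes called in the same GC ranges were not counted. Genes of like GC content had a median log2 ratio of -1.52 for Cd46 and 3.64 for C1qa. A split in this direction is thus not particular to the complement genes. Spearman's rho between GC content and log2 ratio was 0.94 over the 29 genes and 0.86 over 18147 genes, as a description, since all points come from the same pair of libraries. The median GC content over all members of a group was 56.02% for the classical, 49.5% for the lectin, 54.2% for the alternative, 46.6% for the terminal, 46.0% for the regulator and 43.0% for the receptor group.

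**Figure D3:**
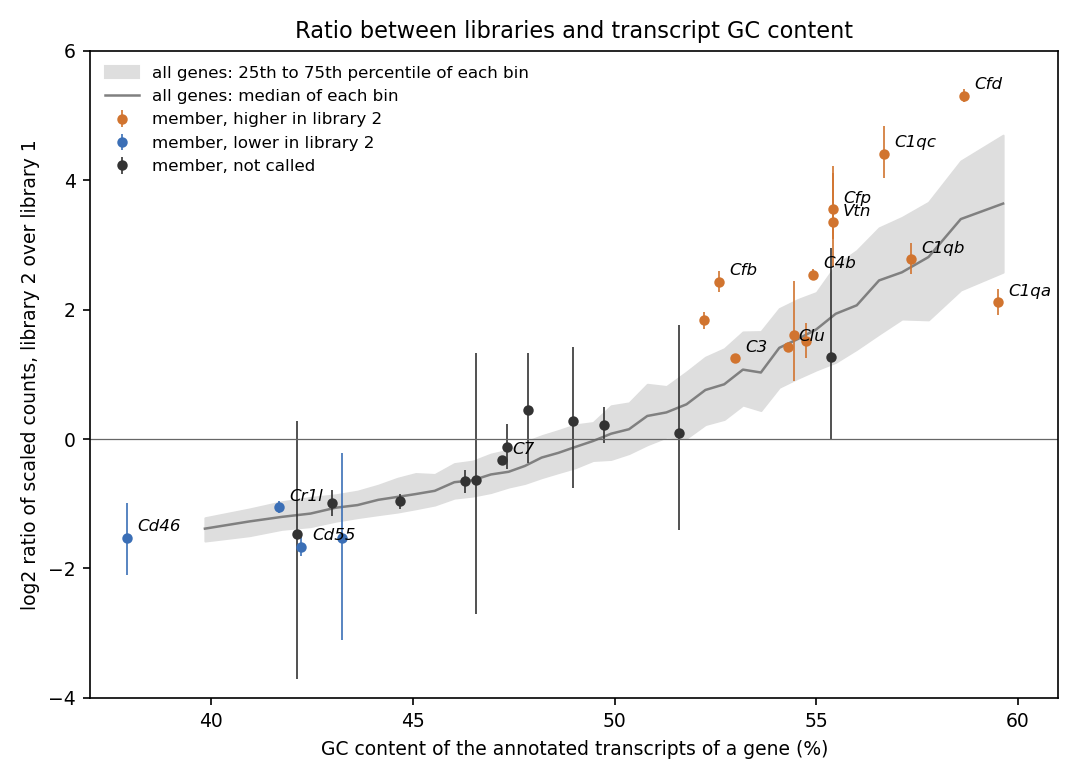
Log2 ratio of scaled counts, library 2 over library 1, against transcript GC content in percent for the 29 tested complement genes, with 95% exact counting intervals, over the median (line) and the 25th to 75th percentile (band) of all genes in bins of GC content. Cfd (58.7% GC) and C1qc lie above the band, C1qa below it, and Clu, C3 and C7 near the line.

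With the median of genes of like GC content subtracted, 22 of the 29 genes lay within 1 log2 unit of that median. The like share over all genes was not counted. Called higher were then 6 of 29 (20.7%, against 9.19% of all genes): Cfd at 1.91, C1qc at 1.96, Cfp at 1.62, Cfb at 1.59, Vtn at 1.41 and C2 at 1.08. The calls of C2 and Cfb are uncertain, since Gm20547 held 421 counts of their locus in library 1 and 0 in library 2. The summed locus had a log2 ratio of 1.55 before removal, beside bin medians of 0.76 for C2 and 0.85 for Cfb. Called lower was 1 (3.45%, against 8.58% of all genes), C1qa at -1.52. The median over the 29 was 0.14, against -0.01 over all genes. C3 stood at 0.18, Clu at 0.01, Fcna at -0.03, Cr1l at 0.16, Cd46 at -0.00 and C7 at 0.17. Not called either were C4b at 0.85, C8g at 0.06 and C9 at -0.46. C1qb stood at 0.21, so the 3 chains of C1q lay below, near and above the median of their bins.

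The transcript with the largest share of a gene's TPM, here called leading, also differed between the libraries for some genes. Of the 16 members at 10 TPM or more on average, 12 had several annotated transcripts, and in 5 of these (C2, C3, Cfp, Fcna and Clu) the leading transcript differed between the libraries. Vtn, which is below that level and was added after its values were seen, differed as well. In all 6, the transcript that led in library 1 was the shorter. The transcripts of other members below 10 TPM were not examined, and no share over all genes was counted.

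For Clu, the 632-base transcript Clu-206 held 87.6% of the gene's TPM in library 1 and 0.03% in library 2, and the 1811-base transcript Clu-201 held 11.8% and 98.8%. In counts, Clu-206 had 21233 and 9.39, and Clu-201 had 10410 and 110559. For C3, a 554-base transcript held 75.7% and 5.36%, on 1145 and 79.1 counts. The 5136-base transcript held 23.95% and 94.6%, on 4889 and 18681 counts. For Fcna, Fcna-202 (560 bases) held 85.5% and 0%. For Cfp, Cfp-202 (401 bases) held 51.5% and 6.39%, on 4.90 and 5.70 counts, beside 31.1 and 555 counts for Cfp-201. In C3 and Cfp the longer transcript thus held more counts than the shorter in both libraries. For C2, C2-206 held 94.55% and 0%, and for Vtn, Vtn-204, a retained intron model, held 81.5% and 0%, on 12 and 0 counts.

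**Figure D4:**
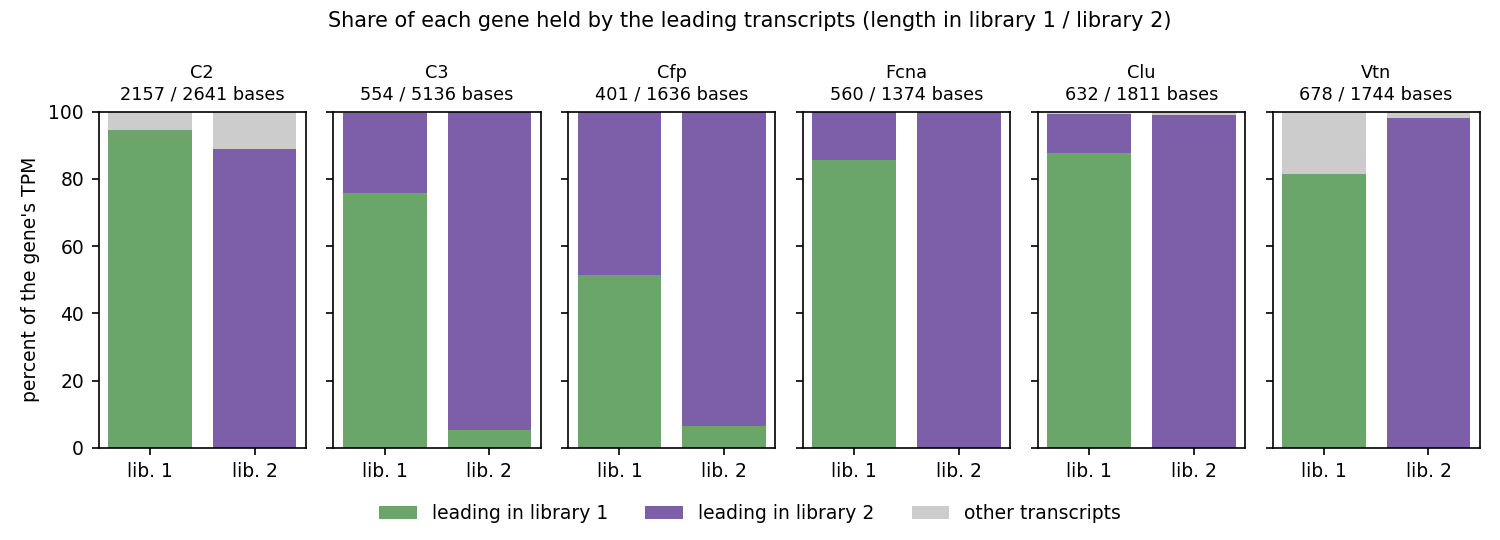
Percent of each gene's TPM held by the transcript that led in library 1 (green), the transcript that led in library 2 (purple) and all others (grey), for 6 genes; lengths in bases stand above each panel. Clu goes from 87.6% to 0.03% for its 632-base transcript.

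The shorter transcripts covered the parts of the longer ones with less GC. In all 6 genes the bases of the library 2 transcript that the library 1 transcript also covers had less GC than the rest. The gap ran from 1.43 percentage points (Vtn, added after its values were seen) to 6.18 (C2). Other genes were not compared in this way. For Clu, 390 shared bases between positions 207 and 596 had 51.0% GC, against 56.9% in the rest of the longer transcript. For C3 the values were 50.2% and 53.7%, for C2 51.3% and 57.5%, for Fcna 53.0% and 57.1%, for Cfp 53.5% and 56.9%, and for Vtn 54.3% and 55.8%. The Clu windows of 90 coding bases with the lowest GC content inside Clu-206 and the highest outside it are printed, with capitals at G and C. They were picked as extremes, so their gap follows from the choice and is wider than that of the whole parts (51.0% and 56.9%).
Clu inside Clu-206: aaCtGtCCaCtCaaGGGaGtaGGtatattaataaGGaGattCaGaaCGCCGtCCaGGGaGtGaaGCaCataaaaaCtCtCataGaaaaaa
Clu outside Clu-206: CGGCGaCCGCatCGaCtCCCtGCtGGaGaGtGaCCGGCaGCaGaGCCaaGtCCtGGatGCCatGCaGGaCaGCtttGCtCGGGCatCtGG
The windows lie at chr14:65973325-65973414, with 40% GC, and chr14:65975628-65975717, with 64.4% GC, on the plus strand, in mm10.

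Because TPM divides by transcript length, these assignments set the TPM of the genes concerned. With all counts of a gene divided by the length of its longest coding transcript, a scale added once the values were known, Clu was at 1146 and 5102 TPM in place of 3185 and 5138. C3 was then at 71.3 and 283 TPM in place of 241 and 298, Fcna at 7.29 and 34.8 in place of 17.6 and 34.8, and Vtn at 0.60 and 10.5 in place of 1.75 and 10.6. Of the 31 members above 0 in both libraries, 13 moved by over 1.5 times in at least 1 library, among them Cfb, Cfp, Cd59b (1.92 and 4.40 TPM in place of 4.02 and 8.80) and Cr1l (55.4 and 44.7 TPM in place of 93.65 and 84.65). For Clu, C3, Fcna and Vtn the value of library 1 moved more than that of library 2. The log2 ratios above rest on counts per gene and do not depend on this length.

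Other genes of the cascade were read from a list of 32, of which 15 reached 1 TPM in both libraries. Of 23 tested, 5 (21.7%, against 30.1% of all genes) were called higher in library 2, 3 (13.0%, against 18.4%) lower and 15 not called. With the GC trend removed, 3 were called higher and 4 lower: Serping1 (0.06) and Itgb2 (0.61) were no longer called, C4bp (1.03) was called higher and Susd4 (-1.63) lower. Among those at 10 TPM or more on average, C4bp, a fluid-phase cofactor against C4b, was highest at 491 and 579 TPM and was not called. Serping1, the inhibitor of the C1 proteases, was at 84.2 and 317 TPM and was called higher at 1.09. The C1 protease genes C1s1 and C1ra, at 132 and 154 TPM and at 22.75 and 71.5 TPM, were not called, at -0.54 and 0.91. Itgb2, an integrin chain of complement receptors, was at 3.58 and 17.8 TPM and was called higher at 1.64, while its partner Itgam, at 8.72 and 11.9 TPM, was not called. Susd4 (18.99 and 59.45 TPM), Colec12 (25.1 and 25.5), Cd93 (18.3 and 16.2) and C1qbp (49.4 and 60.6) were not called.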

How the data were processed

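Gene and transcript tables of 2 technical libraries were used, on mm10 with annotation M4, per text that the authors deposited. For the aligner, quantifier and strand setting, the sources used here give no name. The authors deposited expected counts (estimates that need not be whole), TPM and FPKM per gene, per the file headers, and the percent of a gene's TPM held by each transcript. Symbols, positions and transcript sequences came from GENCODE M21, a later release on the same assembly, and 42462 of 43346 identifiers had a symbol.

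Counts were rounded. Genes with a summed count of at least 10 entered an exact binomial test (two-sided) with TMM sizes from edgeR 4.0.16 (R 4.3.3) and Benjamini-Hochberg adjustment, and called at an adjusted p under 0.05 and 2-fold. Log2 ratios used 0.5 added to each count, and intervals are 95% Clopper-Pearson intervals. The GC trend was the median ratio of 40 bins, from genes with a mean of 100 counts or more. The test was tested on simulated data.

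All 33 members are named. Other complement genes and transcripts are named from 10 TPM on average, except 1 gene not reported here. Members, lists and markers were chosen with earlier results of these data known. Alternatives included DESeq2 1.42.0 size factors, total counts, other filters, posterior means and FPKM. Coding sequences were aligned in place of proteins (Biopython 1.88). Python 3.11.15, scipy 1.17.1 and pandas 2.3.3 were used.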

Additional observations from a re-analysis of the deposited data

How the results depend on the processing

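The 33 genes were measured in 2 technical libraries of 1 biosample, so no alternative gives an error between animals. No paired analysis was possible because the labels hold a single group. Members at 1 TPM or more in both libraries numbered 20 to 25 over the other limits and units, and 23 to 24 in a single library.

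With the GC trend removed, 6 members were called higher in place of 13 and 1 lower in place of 4, and over all genes 1667 were higher in place of 5504 and 1557 lower in place of 3361. With total counts, 2 members were called lower in place of 4, and over all genes 1176 were lower in place of 3361. The split over all genes was then 6789 higher. DESeq2 sizes, no filter, posterior mean counts, 1 added to each count and edgeR's exact test (dispersion 0.01) kept the same 13 and 4 members, and a minimum of 100 counts kept 12 and 3, since C8g and C9 were then not tested.

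Log2 ratios changed sign with the GC trend removed for C1qa (-1.52), C4a (-0.66), C7 (0.17), C8a (0.00898), Cfi (0.39), C3ar1 (0.0764), Cr1l (0.16), Masp2 (-0.44) and Fcna (-0.0315), and with total counts for C7 (0.11) and Cfi (0.32). The cause was not tested.

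Levels and shares by role are means of both libraries here, and single libraries differed: the share of the members' TPM was 1.79% to 5.86% for classical, 8.34% to 44.7% for alternative, 1.25% to 2.67% for terminal, 47.7% to 86.4% for regulator and 0.137% to 0.309% for receptor genes. With mitochondrial entries left out of TPM, the median was 0.684 TPM for terminal, 26.3 for regulator and 8.43 for receptor genes, in place of 0.390, 15.6 and 5.36, and with posterior means the terminal median was 0.975. In expected counts, which are not per length, the classical share of the members was 6.81%, the terminal share 5.36% and the receptor share 0.814%, in place of 3.83%, 1.96% and 0.223% of TPM. By the longest coding transcript, the terminal share was 3.73% and the receptor share 0.431%. Members with fewer than 3 counts in a library lie near the limit of counting at this depth, and no test against 0 was run.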
